A study of Mus musculus with 8 samples.

Results

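Proliferating cells of the mouse line SN4741 were compared between 2 culture temperatures in droplet single-cell RNA sequencing. A cell was chosen when it carried at least 3 unique molecular identifiers (UMIs, each counting 1 captured transcript) of Mki67 and Top2a together, at least 5000 UMIs in all, 200 to 6000 detected genes and at most 15% of its UMIs on genes of the mitochondrial genome. The rule found 4908 cells among 19125 deposited ones, 16015 of which passed the limits on UMIs, genes and mitochondrial share. Of these 4908 cells, 4328 came from 4 libraries at 37 °C and 580 from 4 libraries at 39 °C. Mki67 and Top2a chose the cells, so they entered no test, and their levels are given as a description.

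SN4741 is described as a clonal dopaminergic progenitor line from embryonic mouse substantia nigra, made with a temperature-sensitive SV40 large T antigen (tsA58) driven by the tyrosine hydroxylase promoter. A single line was used, which limits what it can say of other cells. All 8 libraries carry the label genotype WT and the cell type label neural precursor cells. The 37 °C libraries were grown in medium with 10% fetal bovine serum (FBS). The 39 °C libraries, at a temperature where the activity of tsA58 is described as diminished, spent 48 h in medium with 0.5% FBS, so temperature and serum cannot be told apart in any comparison here. The labels do not say whether the 4 replicates of a temperature were separate cultures, and p-values then measure the spread between these libraries, which may be technical.

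Cells in division pass through G1, DNA synthesis (S), G2 and mitosis (M). Mki67 encodes Ki-67, which coats mitotic chromosomes, and Top2a encodes topoisomerase II alpha, which untangles sister chromatids, and transcripts of both build up through S phase to a peak in G2 and M. In G1, E-type and D-type cyclins with their kinases inactivate the Rb family and free E2F factors, which switch on genes of DNA replication. Later in the cycle, MuvB complexes with B-Myb and FoxM1 switch on mitotic genes through a short promoter element called the cell-cycle genes homology region. Large T antigen binds and inactivates the Rb proteins and p53, the activator of Cdkn1a and other genes that halt the cycle.

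Promoter sequences were read for genes on which the results turn, from RefSeq's mouse annotation (GRCm38.p6, the same assembly as the mm10 of the files), each holding 250 bases before and 50 after the annotated start and written 5′ to 3′ on the gene's strand. Cyclin B2 (Ccnb2), the mitotic-entry factor Cdca3 and the kinase Aurora A (Aurka) are shown because Ccnb2 and Cdca3 differed most between proliferating cells and marker-free cells, which held no Mki67 or Top2a UMI (the interaction below, among genes at 50 CPM or more, CPM being UMI counts scaled to the same total in each library) and Aurka fell most on the list of mitotic kinases. Capitals mark CCAAT, the letters NF-Y binds, and TTTGAA, the core of the homology region, both searched on either strand.
Ccnb2 (chr9:70421505-70421804, minus strand): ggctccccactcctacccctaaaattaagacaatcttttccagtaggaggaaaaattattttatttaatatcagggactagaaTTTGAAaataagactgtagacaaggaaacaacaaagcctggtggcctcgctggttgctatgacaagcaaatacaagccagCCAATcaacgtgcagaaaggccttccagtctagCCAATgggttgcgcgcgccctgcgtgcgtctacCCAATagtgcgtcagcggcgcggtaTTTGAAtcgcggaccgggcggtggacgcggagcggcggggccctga
Cdca3 (chr6:124829926-124830225, plus strand): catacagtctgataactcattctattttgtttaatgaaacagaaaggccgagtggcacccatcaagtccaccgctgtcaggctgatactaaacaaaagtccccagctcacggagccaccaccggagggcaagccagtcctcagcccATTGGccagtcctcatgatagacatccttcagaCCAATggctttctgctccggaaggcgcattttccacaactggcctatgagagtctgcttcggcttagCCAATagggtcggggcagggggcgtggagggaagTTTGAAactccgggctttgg
Aurka (chr2:172370521-172370820, minus strand): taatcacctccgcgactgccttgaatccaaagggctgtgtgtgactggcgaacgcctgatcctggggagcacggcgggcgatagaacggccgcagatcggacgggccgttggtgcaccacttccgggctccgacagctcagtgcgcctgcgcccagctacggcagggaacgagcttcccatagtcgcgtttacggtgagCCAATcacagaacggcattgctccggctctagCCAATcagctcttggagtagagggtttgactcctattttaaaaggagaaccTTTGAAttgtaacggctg
With the annotated start counted as 0, CCAAT began at positions -87, -54 and -21 of Ccnb2, spaced evenly, and TTTGAA at -167 and 4. TTTGAA began at position 30 of Cdca3 and 32 of Aurka, close after the start in each of the 3 promoters. TTTGAA was found in 8 of 16 promoters of the list of mitotic kinases and entry genes, in 16 of 25 of the kinetochore, spindle and kinesin list (64.0%) and in 8 of 13 of the mitotic exit and cytokinesis list (61.5%), beside 18.1% of all 27025 promoters of the same length. CCAAT was in 75.0%, 64.0% and 61.5% of these lists and in 37.9% of all promoters, but also in 58.8% of the SRF contractile list and 57.1% of the list of serine synthesis and ATF4 targets. No CCAAT match overlapped a TTTGAA match in the promoters shown, and a match describes the window, not binding.

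The contractile genes Myl9 (myosin light chain) and Actg1 (gamma actin) are shown for the CArG box, the element bound by serum response factor (SRF), here in capitals and searched on either strand.
Myl9 (chr2:156775214-156775513, plus strand): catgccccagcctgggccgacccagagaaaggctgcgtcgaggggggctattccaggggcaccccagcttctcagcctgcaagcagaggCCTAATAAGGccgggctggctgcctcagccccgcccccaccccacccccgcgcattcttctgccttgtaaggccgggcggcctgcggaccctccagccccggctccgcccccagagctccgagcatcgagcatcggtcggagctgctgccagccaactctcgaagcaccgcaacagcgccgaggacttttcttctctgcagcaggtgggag
Actg1 (chr11:120348446-120348745, minus strand): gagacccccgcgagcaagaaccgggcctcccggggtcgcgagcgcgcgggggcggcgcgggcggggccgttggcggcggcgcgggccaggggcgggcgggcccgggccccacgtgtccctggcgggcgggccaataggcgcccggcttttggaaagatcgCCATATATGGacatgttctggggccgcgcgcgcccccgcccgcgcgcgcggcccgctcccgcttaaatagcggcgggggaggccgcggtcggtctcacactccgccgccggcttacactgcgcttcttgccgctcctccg
The CArG box began at position -161 of Myl9 and -90 of Actg1. It was in 5 of 17 promoters of the SRF contractile list (29.4%), those of Myl9, Cnn2, Vcl, Srf and Actg1, beside 1.6% of all promoters.

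Proliferating cells were common at 37 °C and scarce at 39 °C by the marker count that chose them, so their shares are a description. They made up 51.2%, 56.0%, 57.3% and 55.8% of the cells with 5000 or more UMIs in the 37 °C libraries and 9.48%, 6.33%, 7.34% and 6.80% in the 39 °C libraries. With every cell first thinned to 5000 UMIs, the shares were 35.4% to 40.7% and 2.85% to 4.55%. The chosen cells at 39 °C also carried fewer marker UMIs. The median per cell was 12, 14, 14 and 11 UMIs in the 37 °C libraries and 5, 6, 6 and 6 in the 39 °C libraries, and cells with only 3 or 4 UMIs were 16.5% to 18.5% of the chosen cells at 37 °C and 32.5% to 47.8% at 39 °C. Just inside the threshold, with 3 UMIs, stood 445 cells at 37 °C and 140 at 39 °C, and just outside it, with 2 UMIs, 631 and 314. No cell type known to lack these genes was identified, so the level of free RNA was not measured.

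**Figure D1:**
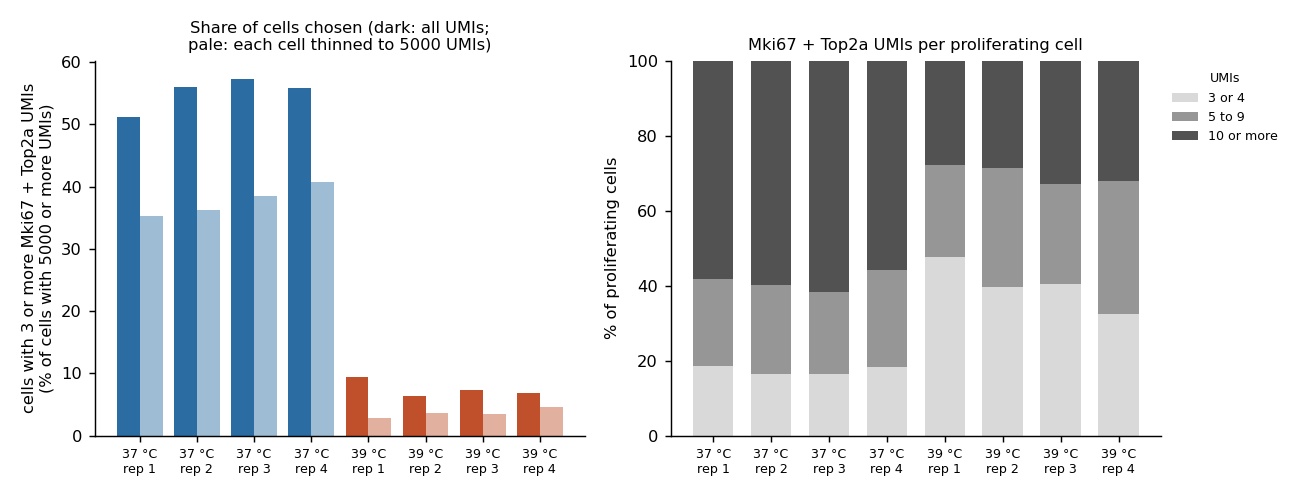
Left, the percentage of cells with 5000 or more UMIs that carried 3 or more Mki67 and Top2a UMIs in each library (dark bars, all UMIs; pale bars, cells thinned to 5000 UMIs). Right, the percentage of these proliferating cells with 3 or 4, 5 to 9 and 10 or more marker UMIs: cells with 10 or more were 55.7% to 61.8% at 37 °C and 27.8% to 32.9% at 39 °C.

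The summed depth of the proliferating cells was 16733965 to 17924442 UMIs per library at 37 °C and 1783066 to 2456642 at 39 °C, so a gene's level was measured on fewer molecules at 39 °C. A proliferating cell had a median of 15653 ± 2724 UMIs (SD over 4 libraries) at 37 °C and of 13874 ± 5253 at 39 °C (exact permutation test over 70 assignments, two-sided, p = 0.6). The median mitochondrial share was 7.43% ± 0.13 and 8.17% ± 0.32 (exact p = 0.0286, the smallest the design allows; 0.0857 adjusted over 3 measures). Replicate 1 at 39 °C stood apart, with 90 cells, a median of 21391 UMIs and the lowest median of marker UMIs. Some results below are also given without it. With this replicate left out, the mean of the library medians at 39 °C was 11368 UMIs (exact permutation test, p = 0.114). At most 2 cell barcodes were shared between the proliferating cells of any pair of libraries. On log2 CPM of 6405 genes, the temperatures came apart along the first principal component (73.8% of the variance) and 39 °C replicate 1 from the other libraries along the second (9.70%).

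The label neural precursor was checked on a list of marker genes. In the proliferating cells of both temperatures Nes, Sox2 and Vim were detected (Sox2, a neural stem cell transcription factor, at 56.7 and 74.1 CPM), while Pax6, Msi1, Prom1 and Fabp7 were at 0 to 2 UMIs in the sums over each temperature. Among dopaminergic markers, Lmx1a and Pitx3 were at 0 and Slc6a3, the dopamine transporter, at 1 UMI in all, while Foxa2, En1 and Nr4a2 were detected without passing the test. Of 19 pan-neuronal genes, Dcx, Elavl4 and Snap25 were at 0 in both groups. Others on that list were detected, among them Ncam1 (8969 UMIs in all at 37 °C and 1074 at 39 °C), Stmn2 (7929 and 457) and Map2 (3613 and 396). Nearly absent were Elavl3 (11 and 1), Rbfox3 (7 and 4), Stmn4 (5 and 0), Stmn3 (3 and 0), Syt1 (2 and 0) and Nefl (1 and 1). The summed depth was far lower at 39 °C, so these sums show detection and do not compare the temperatures.

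Where in the cycle the chosen cells stood differed between the temperatures. Phases were assigned from lists of S and G2/M genes without Mki67 and Top2a, on cells thinned to 5000 UMIs. Cells scored as G1, meaning that neither score was above 0, were 4.83%, 4.80%, 4.82% and 3.96% of the proliferating cells in the 37 °C libraries and 36.7%, 19.2%, 21.2% and 12.4% in the 39 °C libraries. Their mean share was 4.60% ± 0.43 (SD, n = 4) at 37 °C and 22.4% ± 10.2 at 39 °C, a difference of 17.8 percentage points (exact permutation p = 0.0286, adjusted over 3 phases 0.0429), with every 39 °C library above every 37 °C library. Without 39 °C replicate 1 the mean at 39 °C was 17.6%. G2/M cells were 56.6% ± 2.1 at 37 °C and 39.6% ± 9.9 at 39 °C, lower by 17.0 points (adjusted p = 0.0429 in the same exact test). S-phase cells were 38.8% ± 1.9 and 38.0% ± 3.7, and this difference was smaller than the spread between libraries (exact p = 0.8). It depended on the choice of cells and of scoring, since S cells were lower at 39 °C by 6.86 points at 2 or more marker UMIs, by 13.6 at 3 to 9 and by 7.79 with the proliferating cells scored alone (adjusted exact p = 0.0286, 0.0429 and 0.0286). At 2 or more the G1 difference was 30.1 points, and at 3 to 9 the G2/M difference of -6.97 did not pass (adjusted exact p = 0.2). The G1 and G2/M differences did not pass either when cells were thinned to 5000 UMIs before the marker cut, an alternative added after the data were seen, with differences of 3.92 and -7.02 points (adjusted exact p = 0.0857 and 0.171).

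The shares also depended on how many marker UMIs a cell carried. Among cells with 3 or 4 UMIs, 18.5% of 762 at 37 °C and 38.3% of 227 at 39 °C were in G1. Those are pooled cells, with no test. Among cells with 10 or more, numbering 2535 and 178, G2/M cells were 73.0% ± 3.2 over the 37 °C libraries and 70.6% ± 7.7 over the 39 °C libraries, S cells 26.6% ± 3.1 and 27.9% ± 6.5, and G1 cells 0.36% ± 0.20 and 1.46% ± 1.90, and none of the 3 differences passed the exact test (adjusted p = 0.8 for each). The phases use genes that rise and fall with Mki67 and Top2a, so a cut on marker UMIs also shifts the phases. Cells with 10 or more marker UMIs are given beside the main results as a set whose phase shares overlapped between temperatures, with 25 to 56 cells per 39 °C library.

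**Figure D2:**
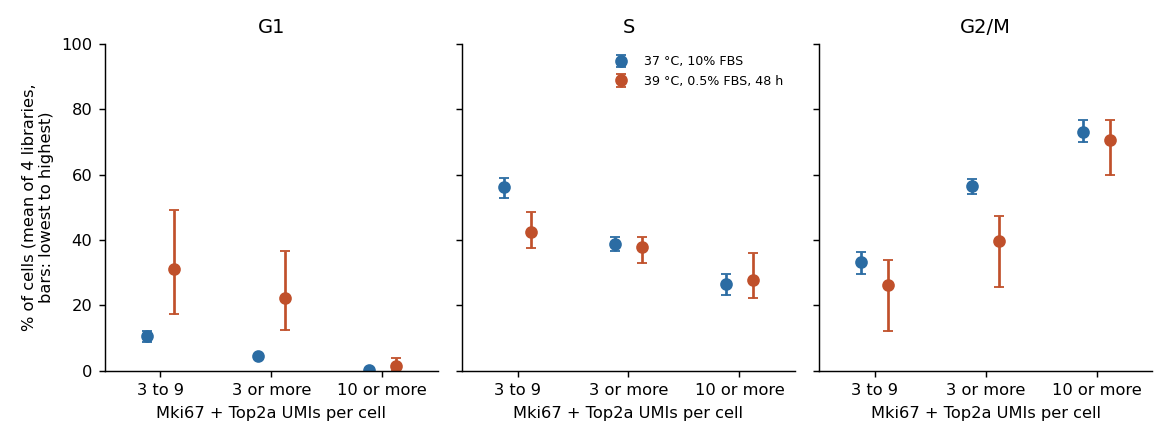
Percentage of proliferating cells in G1, S and G2/M at 37 °C (blue) and 39 °C (red), for cells with 3 to 9, 3 or more and 10 or more Mki67 and Top2a UMIs. Points are means of 4 libraries and bars run from the lowest to the highest library; at 3 or more UMIs the G1 shares do not overlap (3.96% to 4.83% against 12.4% to 36.7%), and at 10 or more all 3 phases overlap.

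Across genes, UMIs were summed over the proliferating cells of each library, and the sums, TMM-normalised, went into a quasi-likelihood fit in edgeR. A gene passed at a Benjamini-Hochberg adjusted p below 0.05, and it was called at an adjusted p below 0.01 with a log2 fold change beyond 1.5 in size. Of 14349 genes tested, 217 were called (1.51%), 119 higher at 39 °C (0.829%) and 98 lower (0.683%), and 4965 passed (34.6%), 2195 higher (15.3%) and 2770 lower (19.3%). Scaling by library totals alone called 154 higher and 73 lower and passed 2837 and 2069, so the balance of directions depends on the scaling. DESeq2 called 145 higher and 72 lower. The 39 °C and 37 °C libraries did not overlap for 193 of the 217 called genes, beside 35.8% of all genes tested. Among cells with 10 or more marker UMIs, where 13701 genes were tested, 121 were called (0.883%) and 2242 passed (16.4%), 6.86% of genes as higher and 9.5% as lower. Of the 217 called genes 210 were tested there, and 129 passed in the same direction. These cells are part of those that gave the 217 calls, so that agreement is not independent.

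The largest rises among called genes at 50 CPM or more were in genes of varied roles outside the cell cycle. Ces2e, a carboxylesterase of the endoplasmic reticulum (ENSMUSG00000031886, chr8:104926260-104934672, plus strand), was at 22.0, 17.8, 17.5 and 15.6 CPM in the 37 °C libraries and at 100.4, 90.8, 82.3 and 77.7 CPM in the 39 °C libraries, a log2 fold change of 2.27 ± 0.10 (SE; adjusted p = 5.16e-17, edgeR). Hmga2, a chromatin protein with AT-hooks that is abundant in embryonic progenitors (ENSMUSG00000056758, chr10:120361275-120476469, minus strand), was at 50.6, 39.5, 53.3 and 49.97 CPM at 37 °C and 193, 214, 262 and 222 CPM at 39 °C, a log2 fold change of 2.21 ± 0.087. Spp1, which encodes the secreted matrix protein osteopontin, was at 168, 162, 211 and 159 CPM and 650.4, 591, 755 and 408 CPM (log2 fold change 1.78 ± 0.11). No overlap between temperatures was required of every gene named among the largest rises or falls, so it is no further evidence for them. The other large rises were Tnfrsf23, a decoy receptor for the death ligand TRAIL (log2 fold change 2.09), Ckmt1, the mitochondrial creatine kinase (1.88), the Iroquois homeobox factor Irx3 (1.71), the zinc-finger repressor Zfp503 (1.70), the autophagy protein Atg9b (1.60), the aldehyde dehydrogenase Aldh3a1 (1.55), and the phospholipid transfer protein Pltp (1.54). Ces2e and Tnfrsf23 have close paralogs, and reads shared between copies make their values less certain.

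Serine synthesis and one-carbon enzymes were among the largest falls at 50 CPM or more. Phgdh, the first enzyme of serine synthesis (ENSMUSG00000053398, chr3:98313170-98339990, minus strand), was at 231, 281, 281 and 330.4 CPM in the 37 °C libraries and 47.0, 75.0, 73.1 and 58.5 CPM in the 39 °C libraries, a log2 fold change of -2.14 ± 0.11 (adjusted p = 1.41e-15, edgeR). Psat1, the next enzyme, was at 122, 138, 135 and 136 CPM and 36.0, 39.3, 45.2 and 41.0 CPM (log2 fold change -1.71 ± 0.086). Mthfd2, the mitochondrial folate enzyme, was at 56.6, 60.0, 58.1 and 70.8 CPM and 14.5, 21.9, 17.2 and 17.5 CPM (-1.79 ± 0.12). In all 3 the temperatures did not overlap, as the rule for the largest falls required. Psph, which makes the last step to serine, fell as well (log2 fold change -1.03). Of 23 tested genes on the list of serine synthesis and ATF4 targets, 13 passed as lower and 6 as higher, beside 19.3% and 15.3% of all genes, and the median log2 fold change was -0.75 beside -0.023 over all genes; the 6 higher included Ddit3 (0.65) and Slc3a2 (0.48). In cells with 10 or more marker UMIs the list's median was -0.41 and Phgdh was at -1.99.

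Cholesterol synthesis genes were lower, 20 of 24 by the test, and so was the lipid enzyme Scd2. Scd2, a stearoyl-CoA desaturase, was at 335, 350.4, 352 and 331 CPM in the 37 °C libraries and 102, 110.2, 95.1 and 101 CPM in the 39 °C libraries (log2 fold change -1.75 ± 0.072; adjusted p = 1.38e-17, edgeR). Of the cholesterol list 0 passed as higher, and the median was -0.66. The shares over all genes tested were 19.3% as lower and 15.3% as higher. Fdps, which makes farnesyl pyrophosphate, had a log2 fold change of -1.28 (99.1 to 40.9 CPM), Acat2 of -1.05, the sterol reductase Hsd17b7 of -1.04 and the mevalonate pathway kinase Pmvk of -0.99. The list's median was -0.70 in cells with 10 or more marker UMIs, -0.58 in G2/M cells alone and -0.83 in S cells alone.

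Actin and contractile genes fell too. Tagln, the actin-binding protein transgelin (ENSMUSG00000032085, chr9:45929619-45936058, minus strand), was at 93.2, 106, 81.1 and 108 CPM at 37 °C and 9.99, 14.3, 35.2 and 12.6 CPM at 39 °C, a log2 fold change of -2.35 ± 0.17 (adjusted p = 4.63e-12, edgeR). Its 39 °C replicate 3 was above the other 39 °C libraries and still below every 37 °C library, and without it the log2 fold change was -3.00. Acta2, smooth-muscle actin, was at 203, 209, 166 and 240.4 CPM and 42.0, 46.4, 56.7 and 76.6 CPM (-1.89 ± 0.12). Of 20 tested SRF contractile genes, 18 passed as lower and 0 as higher, beside 19.3% and 15.3% of all genes. Their median was -0.71, and the other 2, Srf itself and Cnn1, did not pass. Myl9 and Actg1, whose CArG boxes are shown above, had log2 fold changes of -2.33 (23.7 to 4.69 CPM) and -1.15 (4033 to 1823 CPM). Actg1 shares long stretches with other actins, so its value is less certain. The list's median was -0.69 at 10 or more marker UMIs and -0.96 in G2/M cells alone.

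The remaining large falls were Sprr1a, a small proline-rich protein of the cornified envelope (log2 fold change -2.42), Peg10, an imprinted gene derived from a retrotransposon (-1.92), and the keratin Krt19 (-1.67). Sprr1a belongs to a family of near-identical genes.

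**Figure D3:**
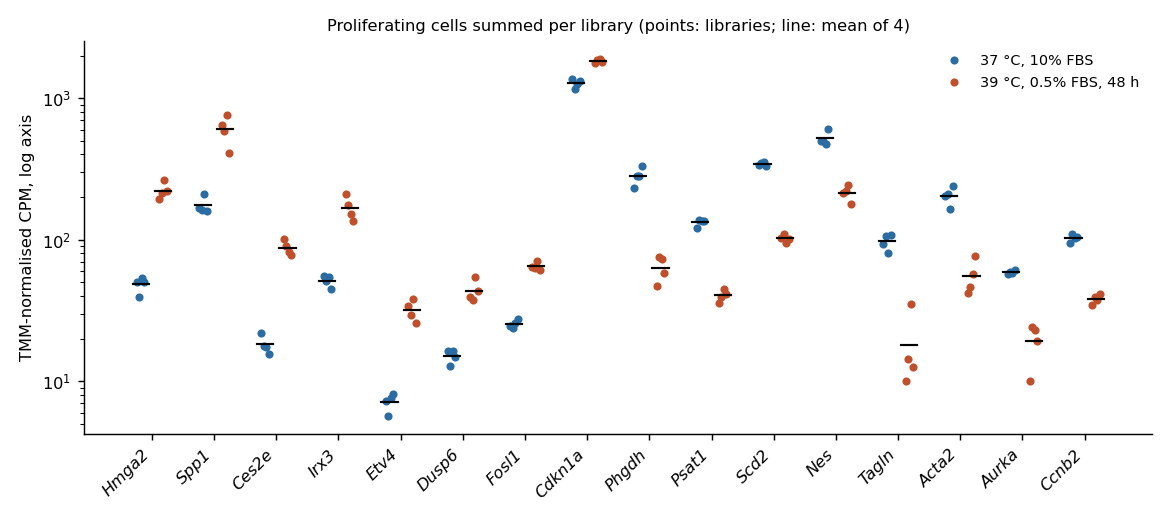
TMM-normalised CPM (log axis) of 16 genes in the proliferating cells of each library at 37 °C (blue) and 39 °C (red), with black lines at the means. The temperatures do not overlap for any of the 16 genes, as the rule required of those named as largest rises or falls. Tagln has the widest spread at 39 °C, from 9.99 to 35.2 CPM.

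Genes of ERK signalling and immediate-early genes rose. ERK kinases switch on their own antagonists, the DUSP phosphatases and Spred and Sprouty proteins, and the ETV transcription factors. Etv4 was at 7.22, 5.63, 7.66 and 8.14 CPM in the 37 °C libraries and 33.97, 29.6, 38.4 and 25.7 CPM in the 39 °C libraries (log2 fold change 2.17 ± 0.14; adjusted p = 3.61e-13, edgeR). Dusp6, the phosphatase of ERK itself, was at 16.2, 12.8, 16.5 and 14.9 CPM and 39.5, 37.2, 54.7 and 43.2 CPM (1.55 ± 0.12). The libraries did not overlap for either gene. Of 14 tested genes of this feedback list, 12 passed as higher and 0 as lower, with a median of 0.75, and 5 were called, Etv4, Dusp6, Dusp4 (1.88), Etv5 (1.83) and Etv1 (1.73), the last 3 at means under 20 CPM and named after their values were seen. Spry1 and Dusp5 did not pass. Shares over all genes were 15.3% passing as higher, 19.3% passing as lower and 0.829% called as higher. Of 20 immediate-early genes, 15 passed as higher and 2, Fosl2 and Klf2, as lower, with a median of 0.50. Fosl1 and Fos, subunits of AP-1, had log2 fold changes of 1.36 and 1.25, Nr4a1 of 1.21 and the antiproliferative gene Btg1 of 1.09. The medians of both lists were about as high in cells with 10 or more marker UMIs (0.77 and 0.52).

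Targets of p53 were higher, 20 of 29 by the test, where 15.3% of all genes passed as higher and 19.3% as lower. Cdkn1a, which encodes the CDK inhibitor p21 (ENSMUSG00000023067, chr17:29090976-29100727, plus strand), was at 1371, 1169, 1257 and 1312 CPM at 37 °C and 1761, 1873, 1885 and 1795 CPM at 39 °C, a log2 fold change of 0.52 ± 0.070 (adjusted p = 5.03e-07, edgeR), with no overlap. Of the list's genes 0 passed as lower, 9 did not pass, and the median was 0.40. The largest rises were the epoxide hydrolase Ephx1 (0.82), the antiproliferative gene Btg2 (0.79), the BH3-only gene Pmaip1 (0.73) and the peptide transporter Tap1 (0.66). Mdm2, the ligase that degrades p53, rose by 0.40 on the log2 scale. Bax and Trp53 itself did not pass (log2 fold changes -0.058 and -0.073). At 10 or more marker UMIs 16 of the 29 passed as higher, beside 6.86% of all genes tested there, and their median was 0.36.

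The other CDK inhibitors went in both directions. The temperature effects were 0.33 for Cdkn2c, which passed as higher, and -1.003, -0.50 and -0.38 for Cdkn2d, Cdkn2a and Cdkn2b, which passed as lower. Cdkn2a, the locus of p16 and p19ARF, was at 1296 ± 26.6 CPM and 917 ± 93.5 CPM (SD, n = 4). Cdkn1b was at 61.8 ± 3.15 and 61.4 ± 11.1 CPM and did not pass, nor did Cdkn1c at under 5 CPM in every library. Cdkn2c no longer passed at 10 or more marker UMIs (0.16), and Cdkn2d was at -0.30 without passing among cells with 3 to 9.

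Genes of the G1/S machinery split. Ccne1, cyclin E1, was at 22.3, 27.4, 28.3 and 30.1 CPM in the 37 °C libraries and 5.50, 12.8, 5.99 and 8.76 CPM in the 39 °C libraries (log2 fold change -1.74 ± 0.18; adjusted p = 6.37e-09, edgeR). Ccnd2 (-0.62), Ccne2 (-0.57) and Ccnd3 (-0.30) also passed as lower, and Ccnd1, the most abundant G1 cyclin here, passed as higher (504 ± 24.2 to 634 ± 42.3 CPM, log2 fold change 0.33). Rb1 was higher (0.54). Over the 17 tested genes of this list, 3 passed as higher and 9 as lower, beside 15.3% and 19.3% of all genes. At 10 or more marker UMIs Ccne1 was still lower (-0.91), while Ccne2 (-0.15), Ccnd1 (0.18) and Ccnd3 (-0.28) did not pass, and in G2/M cells alone Ccne2 was higher at 39 °C (0.64).

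Replication genes were slightly lower. Beside them, 19.3% of all genes passed as lower and 15.3% as higher. Of 19 genes of origin licensing and the MCM helicase, 11 passed as lower and 1, Mcm7, as higher (0.28), with a median of -0.39. Of 26 fork polymerase and clamp genes 18 passed as lower and 0 as higher (median -0.33), led by Pclaf, a binding partner of the clamp PCNA, at 328, 339.8, 333 and 372 CPM and 70.4, 174, 147 and 190.4 CPM (log2 fold change -1.24 ± 0.13). Uhrf1, Rpa2 and Rfc5 were at -0.72, -0.62 and -0.62. Of 16 nucleotide synthesis genes 11 passed as lower, among them the thymidine kinase Tk1 (-0.91) and Dut (-0.72), and 1, Cad, as higher (0.36). At 10 or more marker UMIs the 3 medians were -0.20, -0.10 and -0.32, with 5 of 19, 2 of 26 and 9 of 16 genes passing as lower and 1, 0 and 2 as higher. Over all genes tested there, 9.5% passed as lower and 6.86% as higher, and the 2 of 26 fork genes are below that share.

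Mitotic genes were lower by more, beside shares over all genes of 19.3% passing as lower and 15.3% as higher. Ccnb2 (ENSMUSG00000032218, chr9:70407692-70421547, minus strand) was at 95.1, 109, 102 and 105 CPM at 37 °C and 34.5, 39.3, 37.2 and 41.0 CPM at 39 °C (log2 fold change -1.44 ± 0.087; adjusted p = 6.78e-14, edgeR). Aurka was at 56.9, 59.3, 58.0 and 61.3 CPM and 9.99, 24.0, 23.2 and 19.2 CPM (-1.61 ± 0.13), with replicate 1 lowest at 39 °C. Plk1, the polo-like kinase of mitotic entry, was at 60.5, 63.0, 62.4 and 72.0 CPM and 20.5, 22.4, 25.2 and 20.2 CPM (-1.53 ± 0.11). None of the 3 overlapped between temperatures, which the rule for the largest falls required of Aurka. Of 23 mitotic kinases and entry genes 20 passed as lower and 0 as higher (median -0.73), of 28 kinetochore, spindle and kinesin genes 24 and 0 (median -0.85), of 14 mitotic exit and cytokinesis genes 14 and 0 (median -0.96), and of 17 condensation and cohesion genes 17 and 0 (median -0.57). The kinetochore protein Cenpf and the kinesin Kif20a (each -1.35), the histone variant H2afz (-1.11) and Cdca3 (-1.57) fell most within their lists. H2afz has near-identical copies, so its value is less certain.

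The medians were nearer 0 among cells with many marker UMIs. At 10 or more, the medians of the 4 mitotic lists were -0.27, -0.28, -0.36 and -0.18, and 8 of 23, 14 of 28, 9 of 14 and 5 of 17 genes passed as lower, against 1 kinetochore gene as higher. The shares over all genes tested there were 9.5% as lower and 6.86% as higher. Ccnb2 was at -0.55, Plk1 at -0.61 and Aurka at -0.84 there, and all 3 still passed. Those cells are 178 of the 580 at 39 °C, so fewer genes can pass there. Since the marker cut and the phases move together, the parts of phase and of marker level in the mitotic declines cannot be told apart. In S cells alone Aurka (-0.66) and Plk1 (-0.15) did not pass, and in G2/M cells alone the medians of the first 3 mitotic lists were -0.38, -0.47 and -0.60.

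**Figure D4:**
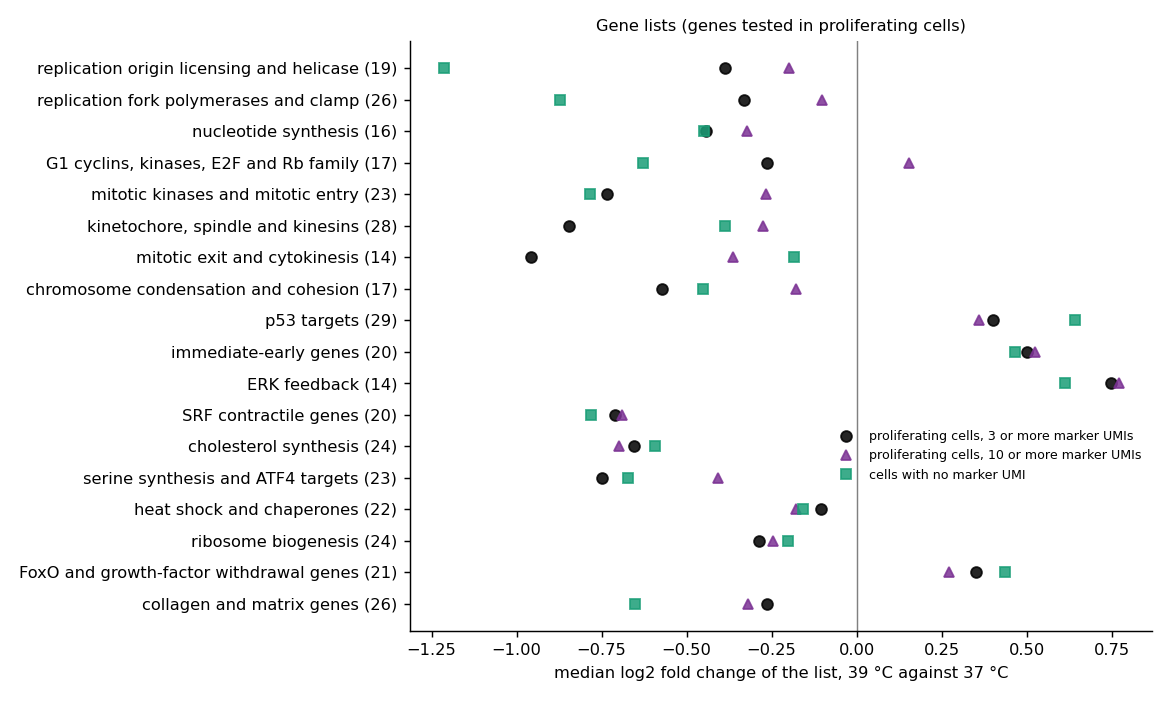
Median log2 fold change, 39 °C against 37 °C, of 18 gene lists in proliferating cells (black circles), in those with 10 or more Mki67 and Top2a UMIs (purple triangles) and in cells with no UMI of either gene (green squares); the number of genes tested in proliferating cells stands in brackets. The mitotic lists move from between -0.96 and -0.57 towards 0 at 10 or more UMIs, while the SRF, cholesterol, ERK and p53 lists stay within 0.05 of their values.

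In other programmes, the genes that passed were all or nearly all lower for heat shock and ribosome biogenesis. They were mostly higher for FoxO genes and for YAP and TEAD targets, and went in both directions for collagen and matrix genes. Over all genes 15.3% passed as higher and 19.3% as lower. Of 22 heat shock and chaperone genes 0 passed as higher and 9 as lower, including the mitochondrial chaperonin Hspd1 (-0.90) and the cold-induced RNA-binding protein Rbm3 (-1.02); the inducible Hspa1a and Hspa1b were at 0.16 and 0.18 and did not pass. Of 24 ribosome biogenesis genes 13 passed as lower, among them nucleolin (Ncl, -0.66) and Nop58 (-0.68), and 1, Utp20, as higher. Of 21 FoxO and growth-factor withdrawal genes 13 passed as higher, including the ubiquitin ligase Fbxo32 (1.39) and the insulin receptor substrate Irs2 (0.89), and 1, Tsc22d3, as lower. Of 26 tested collagen and matrix genes 12 passed as lower, with Col1a2 at 689 ± 3.98 and 255 ± 11.7 CPM (log2 fold change -1.44), and 5 as higher, including Col18a1 (0.69). YAP and TEAD targets had 6 higher and 1 lower of 13, with a median of -0.02 that became 0.06 when scaled by library totals.

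Among the genes that the study names from these libraries, all 6 changed in the proliferating cells too; they were picked on these samples and are not independent evidence. Nes, the intermediate filament nestin of neural progenitors (ENSMUSG00000004891, chr3:87971078-87980451, plus strand), was at 501.8, 501, 478 and 606 CPM in the 37 °C libraries and 212, 219.8, 244 and 177 CPM in the 39 °C libraries, a log2 fold change of -1.28 ± 0.085 (adjusted p = 4.49e-13, edgeR). Celf5 (1.43), the helix-loop-helix inhibitor Id2 (1.36) and the cadherin Cdh13 (1.25) rose, as did Hmga2 and Irx3. On the neural progenitor list 8 of 12 tested genes passed as higher, led by Id4 (1.52), Id2 and Sox9 (1.09), with Notch1 at 0.70, and 2, Nes and Sox11, as lower. Of 12 pan-neuronal genes, beside 15.3% of all genes as higher and 19.3% as lower, 2 passed as higher, Celf5 and Tubb3 (0.43, with overlap between the groups), and 2 as lower, Stmn2 (-1.11) and Nefm (-2.04). None of the 6 tested dopaminergic markers passed.

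Markers of glia and of immune and endothelial cells were low in both groups. Those of fibroblasts and mural cells were split between detected and nearly absent genes, and some of each class passed the test. Among all genes, 15.3% passed as higher and 19.3% as lower. The summed level of the glia list was 39.6 to 46.2 CPM at 37 °C and 42.8 to 53.6 CPM at 39 °C, with Gfap, Mog, Olig1, Olig2 and Sox10 at 0 in all 8 libraries. Of its 5 tested genes 2 passed as higher, among them Cspg4 (0.34), and 1, Slc1a3 (-0.75), as lower. The fibroblast and mural list summed to 1346 to 1423 CPM and 844 to 914 CPM, mostly from Col1a1 and Prrx1. The PDGF receptor gene Pdgfrb was at 5027 and 627 UMIs in all. Such sums differ in depth and do not compare the temperatures. Dpt was at 0, and Dcn (4 UMIs in all at 37 °C and 2 at 39 °C), Lum (1 and 0), Thy1 (2 and 0) and Rgs5 (2 and 1) were nearly absent. Of the list's 6 tested genes Col3a1 (-3.78), Col1a1 (-0.89) and Prrx1 (-0.33) passed as lower and Twist1 (0.44) as higher. The immune and endothelial list summed to 20.4 to 24.7 CPM and 30.1 to 45.2 CPM, mostly from the lysosomal gene Cd68. Cd68 passed as higher (0.88) with the chemokine receptor Cx3cr1 (0.879 to 2.52 CPM, with overlap between the groups). Cdh5, Kdr and Hbb-bs were at 0, and Ptprc, the pan-leukocyte marker, was at 2 UMIs in all. Others were detected, among them Hba-a1 (177 UMIs in all at 37 °C and 30 at 39 °C), Tek (36 and 2) and Aif1 (11 and 2). Slc1a3, Cx3cr1 and Col3a1 are named after their values were seen. The part of other cell types in the results was not tested beyond these values.

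To show where the response of proliferating cells differed, it was set beside that of cells in the same libraries with no Mki67 or Top2a UMI, numbering 1827 at 37 °C and 5962 at 39 °C. These cells were 52.996% to 61.9% G1 and 36.7% to 44.8% S at 37 °C, and 91.1% to 92.6% G1 at 39 °C. Of 14357 genes tested in them 449 were called (3.13%), 1.32% as higher and 1.81% as lower, and 48.9% passed. Of the 217 genes called in proliferating cells, 211 were tested in the marker-free cells and 178 of them passed there in the same direction. The difference of the temperature effects was tested as an interaction on 16 sums with the library as a term, over 14380 genes. It passed for 1781 genes (12.4%), 756 with a more positive effect in proliferating cells (5.26%) and 1025 with a more negative one (7.13%); at the stricter threshold 56 were called (0.389%), 0.271% as higher. Library totals alone gave passing counts of 1295 and 507, RLE scaling 914 and 799, and no filter on low counts 527 and 1534. Among the 217 called genes, 45 of 214 passed, beside that background of 12.4%.

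The most positive interactions among genes at 50 CPM or more were in cell-cycle genes whose levels in marker-free cells at 39 °C were low. The effect of 39 °C on Ccnb2 was -1.44 in proliferating and -5.17 in marker-free cells, from 27.2 to 0.735 CPM in the latter, a difference of 3.76 ± 0.20 (adjusted p = 2.65e-73, edgeR). Cdca3 differed by 2.69, Pclaf by 2.59 and Spc24, a subunit of the Ndc80 kinetochore complex, by 2.36. Dtl, a substrate receptor of a ubiquitin ligase active in S phase, did not pass within proliferating cells (60.2 ± 1.75 and 64.4 ± 13.6 CPM) while it went from 31.8 to 8.07 CPM in marker-free cells, a difference of 2.08. Both classes were defined by genes whose levels follow the cycle, so an interaction in a cell-cycle gene is partly set by the rule.

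The most negative interactions were in mitotic genes and a histone, which fell in proliferating cells, while all but Cdca8 rose from a low level in marker-free ones. Cdc20, the activator of the anaphase-promoting complex (ENSMUSG00000006398, chr4:118432901-118437352, minus strand), was at 105, 125, 127 and 129 CPM in proliferating cells at 37 °C and 48.5, 49.99, 69.1 and 58.5 CPM at 39 °C (-1.09 ± 0.095), while in marker-free cells it was at 10.7 and 20.4 CPM (0.96), a difference of -2.02 ± 0.12 (adjusted p = 5.77e-55, edgeR). Spc25, the partner of Spc24 in the Ndc80 complex, differed by -1.61, the kinetochore kinesin Cenpe by -1.52, the histone Hist1h2ap by -1.46 and borealin (Cdca8), whose effect in marker-free cells was 0.25 and did not pass, by -1.39. Spc24 and Spc25 had interactions of opposite sign. Within S cells alone the temperature effects on Cdc20 (0.02), Spc25 (0.079) and Cenpe (0.21) were above 0 and did not pass. Hist1h2ap overlapped between temperatures, is 1 of many near-identical histone genes and lacks a poly(A) tail on most transcripts, so its value is uncertain.

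Genes outside the cycle also differed. The contractile gene Acta2 fell by less in proliferating cells (-1.89) than in marker-free ones (-3.52; difference 1.67, adjusted p = 1.67e-63 in edgeR), as did Phgdh (difference 0.77), Psat1 (0.77) and Nes (0.64), and Tagln at 0.99, which did not pass without 39 °C replicate 3 (0.43). Ces2e, Spp1 and Zfp503 rose by more in proliferating cells (differences 1.06, 0.80 and 0.72), and Hmga2 slightly so (0.34). Cdkn1a rose by less (0.52 against 0.80; difference -0.26), and Cdkn2d, at 0.18 in marker-free cells, differed by -1.16. For the p53 list 15 of 29 genes passed with a lower effect in proliferating cells and 1 with a higher one, beside shares of 7.13% and 5.26% over all genes. For Etv4, Fosl1, Id2 and Cdh13 the differences were -0.045, 0.048, -0.0057 and 0.0098, and none passed. They do not stand for their lists, since Dusp6 (0.52), Nr4a1 (0.56), Phlda1 (0.21) and Irx3 (0.32) passed with a more positive effect in proliferating cells. Of 14 ERK feedback genes 3 passed with a more positive effect and 1 with a more negative one, and of 20 immediate-early genes 4 and 5.

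Finally, each cell's 30 nearest neighbours among cells of other libraries were found on 30 principal components, with libraries weighted equally, as a description without a test. For proliferating cells at 39 °C, 29.6%, 42.6%, 40.9% and 44.8% of neighbours were 37 °C cells in replicates 1 to 4. Replicate 1 was lowest, and with that library left out of the search as well the mean of the other 3 was 45.6%. For marker-free cells of the same libraries the shares were 6.84%, 6.56%, 7.49% and 6.04%. Proliferating cells at 37 °C had 94.0% to 96.8% of their neighbours at 37 °C. Within the 39 °C proliferating cells the mean share was 51.1% for G2/M, 41.3% for S and 15.1% for G1 cells. Proliferating cells are far more numerous at 37 °C, so a cell matched on cycle state has more candidates there, and the weighting by library does not remove this.

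**Figure D5:**
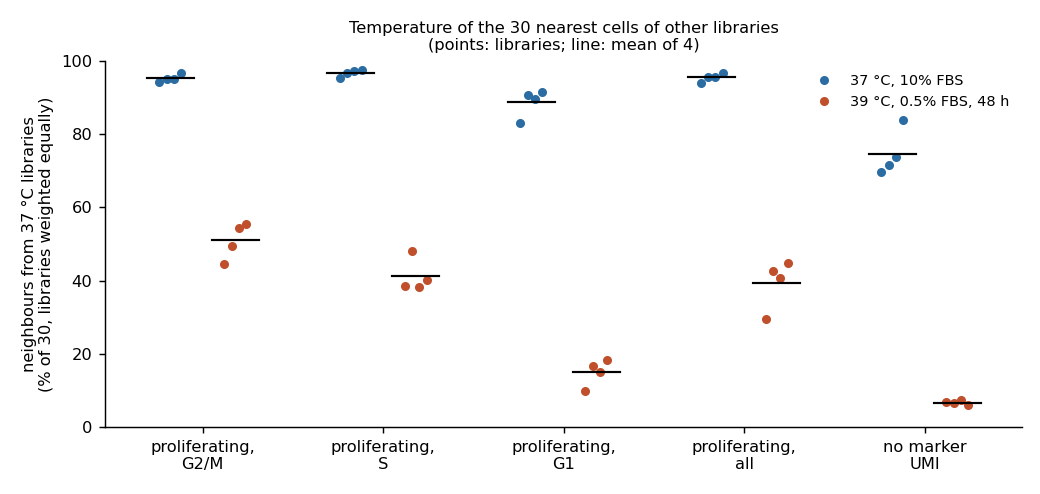
Percentage of the 30 nearest cells of other libraries that came from 37 °C libraries, for proliferating cells by phase, for all proliferating cells and for cells with no marker UMI. Points are libraries (37 °C blue, 39 °C red) and lines are means of 4; the 39 °C proliferating cells lie between 29.6% and 44.8% and the 39 °C marker-free cells between 6.04% and 7.49%.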

How the data were processed

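Cells of 8 libraries (Chromium 3′ v3 kit) were counted by the authors with Cell Ranger 3.0.1 against mm10, per the labels, and the deposited matrices hold raw UMI counts of 31053 genes, 13 of them mitochondrial. The deposited cells, 1167 to 3557 per library before any limit, held 22988911 to 33652656 UMIs. Counts of the chosen cells were summed per library, so the library is the replicate (4 against 4), and cells are not. Sums were tested with edgeR 4.0.16 (glmQLFit, TMM, R 4.3.3) on genes averaging at least 1 count per library, with temperature as the only term, and CPM are TMM-normalised. The interaction used 16 sums with the library as a term. Phases came from Seurat 5.3.0 on cells thinned to 5000 UMIs and were compared by two-sided exact permutation tests. Neighbours used scanpy 1.11.5 and scikit-learn 1.9.0.

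The cells and the gene lists were chosen with earlier results of these data known. The rule for named genes took, of the called genes, the 10 that rose most and the 10 that fell most with at least 50 CPM and no overlap, the 5 largest interactions in each direction with at least 50 CPM, the genes the study names, up to 4 passing members of each list with at least 20 CPM, and all CDK inhibitors and G1 cyclins. Other list members named in the text were chosen after their values were seen. Gene positions are from the GENCODE annotation of GRCm38, promoters from RefSeq. No pair of libraries of a temperature matched within counting noise, with chi-square values of 1.52 to 9.22 per degree of freedom. The doublet caller scored only 2 cells above 0.5 and had not worked, so doublets were kept, and an alternative left out the 148 proliferating cells with the highest scores. On simulated counts, 200 genes averaging at least 10 counts were shifted by a log2 of 2.5. The test recovered 200 in proliferating cells (14034 genes), 199 in marker-free cells (14113) and 193 for the interaction (14182), with 0, 0 and 1 false calls. Smaller shifts and genes with fewer counts were not simulated, so recovery of those is not known. Alternatives were DESeq2 1.42.0, other scalings, filters, marker cuts, phases, thinning, a replicate block and leaving out each library. Some members of the lists are counted but not reported here by name.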

Additional observations from a re-analysis of the deposited data

Results flagged for a closer look

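Of 254 groups of 4 libraries examined, 15 held a library far from the other 3, where chance gives about 1 in 20. Replicate 1 at 39 °C was the lowest in median marker UMIs (5) and in CPM of Spc24 (36.0), Cenpf (139) and Nupr1 (16.5), and the highest for Ephx1 (516) and Btg1 (271). Replicate 3 at 39 °C was the highest for Tagln (35.2 CPM) and the lowest for Prrx1 (142 CPM), and replicate 4 at 39 °C the highest for Notch1 (382 CPM). At 37 °C, replicate 1 was the lowest for Psat1 (122 CPM), replicate 2 the highest for Nop58 (199 CPM), replicate 3 the highest in mitochondrial share (7.62%), and replicate 4 the highest for Dtymk (247 CPM) and Nhp2 (286 CPM) and the lowest in G1 cells (3.96%).

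The temperature effect differed between proliferating and marker-free cells, by the interaction test in edgeR, for 69 of 115 named genes. Of these, 46 had a more positive effect in proliferating cells and 23 a more negative one. Across all genes tested, 12.4% passed, 5.26% as more positive and 7.13% as more negative. The named genes include the 5 largest interactions in each direction and many cell-cycle genes, so their count is raised by how they were chosen. Among the genes described above, the effect was higher on the log2 scale in proliferating cells for Ccnb2 (3.76), Cdca3 (2.69), Pclaf (2.59), Spc24 (2.36), Dtl (2.08), Acta2 (1.67), Ces2e (1.06), Tagln (0.99), Spp1 (0.80), Phgdh (0.77), Psat1 (0.77), Zfp503 (0.72), Nes (0.64) and Hmga2 (0.34). It was lower for Cdc20 (-2.02), Spc25 (-1.61), Cenpe (-1.52), Hist1h2ap (-1.46), Cdca8 (-1.39), Cdkn2d (-1.16) and Cdkn1a (-0.26).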

How the results depend on the processing

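The count of called genes, 217, became 121 with 10 or more marker UMIs and 112 with cells thinned before the cut, both with fewer cells, and 173 to 232 with any library left out. In marker-free cells it was 449, 283 under the filterByExpr minimum, which tests fewer genes, and 367 to 436 with a library left out. The interaction count of 1781 became 765 with no library term, 828 thinned and 1469 to 1754 with a library left out. Replicate numbers do not pair the samples (correlations of deviations -0.022, -0.079, -0.00068 and 0.16), and the replicate block called 222 genes.

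The G1 difference of 17.8 points was 30.1 at 2 or more marker UMIs, 26.6 with the proliferating cells scored alone, 1.10 at 10 or more, 3.92 when cells were thinned before the cut and 13.0 to 21.1 with a library left out, where leaving out any 37 °C library gave an adjusted p of 0.0857 in the exact test. The G2/M difference of -17.0 was -2.41 at 10 or more, -7.02 thinned before the cut, -6.97 at 3 to 9 (all 3 without passing), -23.2 at 2 or more, and -19.5 to -12.3 with a library left out. The S difference of -0.79 was -6.86 at 2 or more marker UMIs, 1.31 at 10 or more, -13.6 at 3 to 9, -7.79 with the proliferating cells scored alone, 3.10 thinned before the cut (passing at 2 or more, at 3 to 9 and scored alone), and -1.81 to 0.90 with a library left out, the highest without 39 °C replicate 3. The share of proliferating cells was 63.2% and 11.5% at 2 or more marker UMIs, 32.5% and 2.26% at 10 or more, and 37.7% and 3.62% thinned. With a library left out, the difference in median genes ran from -592 to 21.6 (above 0 without 39 °C replicate 4), in median UMIs from -4284 to -274 and in mitochondrial share from 0.59 to 0.85 points, and the 37 °C neighbours of 39 °C cells from 34.9% to 46.6% for proliferating and 4.88% to 10.5% for marker-free cells; without cell-cycle genes the former was 33.9%, and the mitochondrial difference was 0.57 points at 10 or more marker UMIs.

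Over 115 named genes and 26 settings, 2887 of the effects kept their side of the threshold, 83 no longer passed, 6 newly passed and 14 that had passed changed sign. Of genes that had not passed, Cdkn1b changed sign in 11 settings, Cdkn1c in 2 and Dtl in 3. Of the 14, those in S cells alone were Cdc20 (0.020), Spc25 (0.079), Cenpe (0.21) and Kif2c (0.058). In G2/M cells alone they were Hist1h2ap (0.17), Cdc6 (0.14), Ccne2 (0.64) and Nuak2 (-0.070), at 3 to 9 marker UMIs Spc25 (0.42), Hist1h2ap (0.39) and Ctgf (-0.023), at 10 or more Hist1h2ap (0.15) and Nuak2 (-0.15), and thinned Ccne2 (0.033). The cause was not tested. With 1 library left out, Ctgf, Nuak2, Tubb3, Ccnd3 and Cspg4 no longer passed. Dtl passed without 39 °C replicate 1 (0.22), in G2/M cells alone (0.62), at 10 or more marker UMIs (0.57), thinned (0.69) and, as lower, at 2 or more (-0.21), and Cdkn1b in S cells alone (0.54). The interactions of Hist1h2ap, Tagln, Hmga2 and Cdkn1a did not pass without the library term, nor did Cdca8 (-0.37), Tagln, Zfp503 and Hmga2 thinned. The depth at 39 °C, 90 to 170 cells per library, limits what can be detected for genes at low levels.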
